A study of Mus musculus with 6 samples.

Results

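The oligodendrocyte precursor genes examined here are 9 genes picked by symbol, out of the 17348 genes measured in embryonic mouse cortex. They are the lineage transcription factors Olig1, Olig2, Nkx2-2, Sox10 and Sox8, the growth factor receptors Pdgfra and Egfr, and the membrane protein genes Cspg4 and Lhfpl3. All 9 were found in the table, and 8 of them had enough reads to be tested.

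RNA-seq was performed on cortices at E18.5, shortly before birth, with 3 libraries of Ybx1 conditional knockout (cKO) embryos and 3 of control embryos labelled WT. In cKO embryos exons 3 to 8 of Ybx1, which encodes an RNA-binding protein that reads the m5C mark, were flanked by loxP sites and removed by a Nestin-Cre transgene, which is active in neural stem and progenitor cells and their progeny, including those that give rise to oligodendrocytes. The methods describe the sequenced controls as wild type littermates, whereas the controls of the same study's phenotyping were Ybx1 fl/fl without Cre, and which alleles the sequenced controls carried is not given in the sources used here. The series description speaks of different biological replicates, but no label ties a library to an embryo, so the p-values measure the spread between these libraries.

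Oligodendrocyte precursors of the forebrain are born in successive waves from progenitors of the ventral and then the dorsal ventricular zone. Olig2 and its neighbour Olig1 specify the lineage, Sox10 and Sox8 act in the committed cells, and PDGF signalling through Pdgfra keeps precursors alive and dividing. At late embryonic stages precursors are present in the cortex while myelin has not yet formed. None of the 9 genes belongs to these cells alone: Pdgfra is also expressed by meningeal fibroblasts, Cspg4 by pericytes, and Olig1, Olig2 and Egfr by ventral and glial progenitors. In bulk RNA, fewer cells of a type and less RNA per cell cannot be told apart.

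The libraries held 15091951 to 16885451 estimated counts, and 3 counts, the detection floor used here, stood for 0.178 to 0.199 CPM (counts scaled to the library total). The targeted gene followed the labels: Ybx1 had 16184, 22152 and 13950 counts in the control libraries against 387, 394 and 390 in the cKO libraries, 2.25% of the control mean in CPM (log2 fold change -5.47, SE 0.16, edgeR's quasi-likelihood test, adjusted p = 6.95e-07). The 4 Y-linked genes examined summed to 3678 to 4311 counts in the control libraries and 15 to 23 in the cKO libraries, so the sex chromosomes and the genotype cannot be told apart in these 6 libraries. Of 13570 genes tested, 10 (0.0737%) had an adjusted p under 0.05. A looser rule, an unadjusted p under 0.05 with at least a 1.2-fold change, was met by 6.32% of genes (3.01% higher and 3.3% lower in cKO), and the 2 groups did not overlap for 14.3% of genes (7.35% with cKO above control).

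No oligodendrocyte precursor gene passed the test between cKO and control cortex. By edgeR's quasi-likelihood test, 0 of 8 had an adjusted p under 0.05, 0 of 8 met the looser rule (the lowest unadjusted p was 0.257, for Olig2), and the groups overlapped for all 9. DESeq2 likewise gave 0 of 8 under either rule. Fitted log2 fold changes ran from -0.33 (Olig2) to 0.11 (Cspg4), with 2 above and 6 below 0, and their median was -0.09 against 0.0027 for all genes tested. The intervals were wide: they left room for Olig2 to be 1.91-fold lower or 1.22-fold higher in cKO, and for Cspg4 to be 1.13-fold lower or 1.31-fold higher.

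**Figure D1:**
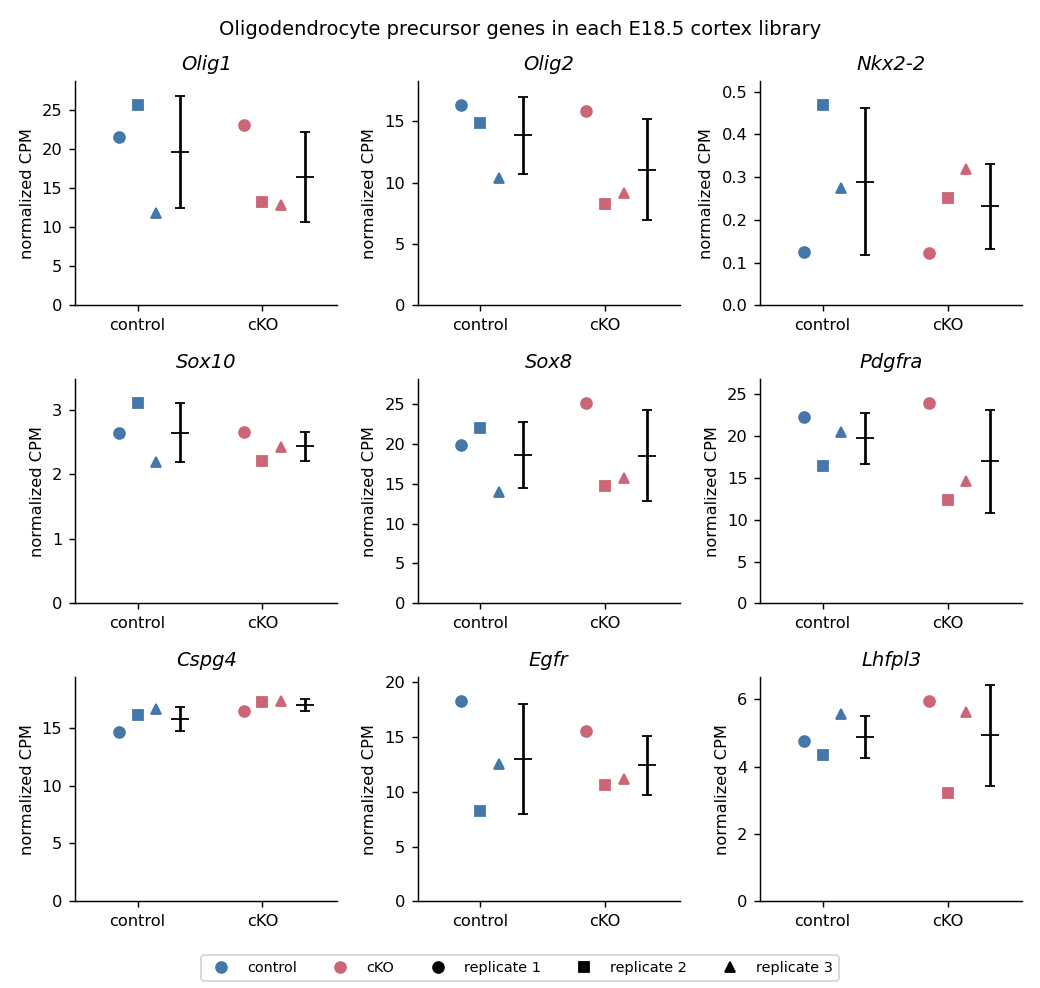
Normalized CPM (y axis, from 0) of each of the 9 genes in the 3 control (blue) and 3 cKO (red) libraries, with the marker shape giving the replicate number and black bars the mean ± SD of a group. The groups overlap in every panel, and cKO replicate 1 is the highest library for Sox8, Pdgfra and Lhfpl3.

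Olig1 and Olig2, which encode basic helix-loop-helix factors, lie side by side on mouse chromosome 16. In GRCm38 with GENCODE M21, Olig2 spans chr16:91225457-91228677 with 2 exons and Olig1 spans chr16:91269772-91271933 with 1 exon, both on the plus strand and 41094 bases apart. Olig1 was measured at 21.5, 25.6 and 11.8 CPM in control replicates 1, 2 and 3 and at 23.2, 13.3 and 12.9 CPM in the cKO replicates. Control replicate 3 was the lowest of all 6 libraries and cKO replicate 1 stood with the 2 higher controls. The log2 fold change of cKO over control was -0.26 (SE 0.31, 95% interval -0.96 to 0.44, edgeR adjusted p = 0.902), and the exact two-sided permutation p was 0.8, where 3 libraries against 3 allow none below 0.1. Leaving out cKO replicate 1 gave -0.59 for Olig1, and leaving out control replicate 2 gave -0.02.

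Olig2, the factor without which the lineage is not specified, had 16.3, 14.9 and 10.3 CPM in the control libraries and 15.8, 8.25 and 9.13 CPM in the cKO libraries. Replicates 2 and 3 of cKO were below every control, while cKO replicate 1 was above 2 of the 3. The log2 fold change was -0.33 (SE 0.27, 95% interval -0.93 to 0.28, edgeR adjusted p = 0.862, exact permutation p = 0.3). Leaving out cKO replicate 1 moved it most: without that library the log2 fold change of Olig2 was -0.67 (unadjusted p = 0.0206, adjusted p = 0.997), and without cKO replicate 2 it was -0.15. The ratio of Olig1 to Olig2 in TPM, the authors' values divided by transcript length, was 1.59 ± 0.34 in control and 1.71 ± 0.12 in cKO (SD, n = 3 each), so the 2 neighbours kept the same order in all 6 libraries.

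Sox10 and Sox8 encode SOX group E factors. Sox10, on the minus strand at chr15:79154908-79165240, turns on myelin genes and marks the lineage from its commitment onward. It was low, at 2.63, 3.10 and 2.19 CPM in control and 2.66, 2.2 and 2.43 CPM in cKO. The 6 values lay within 1.42-fold of each other, and all cKO values fell inside the control range. The log2 fold change was -0.12 (SE 0.22, 95% interval -0.63 to 0.38, edgeR adjusted p = 0.927).

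Sox8 (chr17:25565892-25570686, minus strand) is expressed in glial progenitors more broadly than Sox10. Its values were 19.9, 22 and 14.0 CPM in control and 25.1, 14.7 and 15.7 CPM in cKO. The highest library was cKO replicate 1 and the lowest control replicate 3, and the fitted difference was close to 0 (log2 fold change -0.01, 95% interval -0.55 to 0.53, edgeR adjusted p = 0.995). Per transcript length, Sox8 exceeded Sox10 by 5.71 to 8.43 times in TPM. Nkx2-2 (chr2:147177546-147194243, minus strand), a homeodomain factor of ventral progenitors and of differentiating precursors, was at or near the floor. It drew 2, 8 and 4 counts in control and 2, 4 and 5 counts in cKO. The gene failed the filter on low counts, and gave a log2 fold change of -0.35 with a 95% interval from -1.77 to 1.08 (edgeR adjusted p = 0.933) when fitted without that filter.

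Pdgfra (chr5:75152292-75198215, plus strand, 23 exons) encodes the PDGF receptor by which precursors are usually recognised. Its values were 22.3, 16.4 and 20.6 CPM in control and 24.0, 12.3 and 14.6 CPM in cKO. Replicates 2 and 3 of cKO were the lowest libraries, as for Olig2, and cKO replicate 1 was the highest. The log2 fold change was -0.22 (SE 0.24, 95% interval -0.77 to 0.33, edgeR adjusted p = 0.900, exact permutation p = 0.5), and it depended on the libraries used: -0.55 without cKO replicate 1 (unadjusted p = 0.0220, adjusted p = 0.997), -0.03 without cKO replicate 2, and -0.12 without either cKO replicate 3 or control replicate 1. Markers of meningeal fibroblasts, the other Pdgfra-expressing cells, summed to 43.5 to 52.0 TPM in control and 48.8 to 57.6 TPM in cKO. Most of each sum was Igf2 (mean 37.3 TPM, log2 fold change 0.01), while Slc6a13 was at 0 to 0.41 TPM and Col1a1 at 0.29 to 0.58 TPM. All 7 tested genes of this list had a log2 fold change above 0, and 0 met either rule. The groups were apart for 1 of the 7, Col1a2 (log2 fold change 0.42, edgeR adjusted p = 0.763). The part of meningeal fibroblasts in the Pdgfra values was not tested.

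Egfr (chr11:16752203-16918158, plus strand, 28 exons) encodes the EGF receptor, which is high in glial progenitors around birth. Of the 8 genes tested it had the widest control range, at 18.3, 8.26 and 12.5 CPM, a 2.22-fold span. The cKO values of 15.5, 10.6 and 11.2 CPM all lay inside it. The log2 fold change was -0.06 (SE 0.28, 95% interval -0.69 to 0.57, edgeR adjusted p = 0.971).

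Cspg4 (chr9:56865033-56899870, plus strand) encodes the NG2 proteoglycan of precursors and pericytes. It behaved unlike the others in being almost level, at 14.6, 16.1 and 16.6 CPM in control and 16.4, 17.2 and 17.3 CPM in cKO. The cKO values lay at the upper end, 1 of them between controls. The log2 fold change was 0.11 (SE 0.12, 95% interval -0.17 to 0.39, edgeR adjusted p = 0.900, exact permutation p = 0.2). In the authors' TPM values, which are not scaled by TMM, Cspg4 was 4.13, 4.01 and 4.87 in control and 5.0, 5.21 and 5.27 in cKO, so the groups did not overlap on that scale, on which the median of all genes was itself higher in cKO by 0.16 (log2 of TPM + 0.1). Pericyte markers summed to 118 to 167 TPM in control and 154 to 183 TPM in cKO, and whether they bear on Cspg4 was not tested.

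Lhfpl3 (chr5:22746059-23275597, plus strand), a tetraspan membrane protein gene that marks precursors in single-cell surveys, was lower, at 4.76, 4.33 and 5.55 CPM in control and 5.94, 3.21 and 5.62 CPM in cKO. The control range sat inside the cKO range. Its log2 fold change was 0.01 (SE 0.25, 95% interval -0.56 to 0.59, edgeR adjusted p = 0.993).

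**Figure D2:**
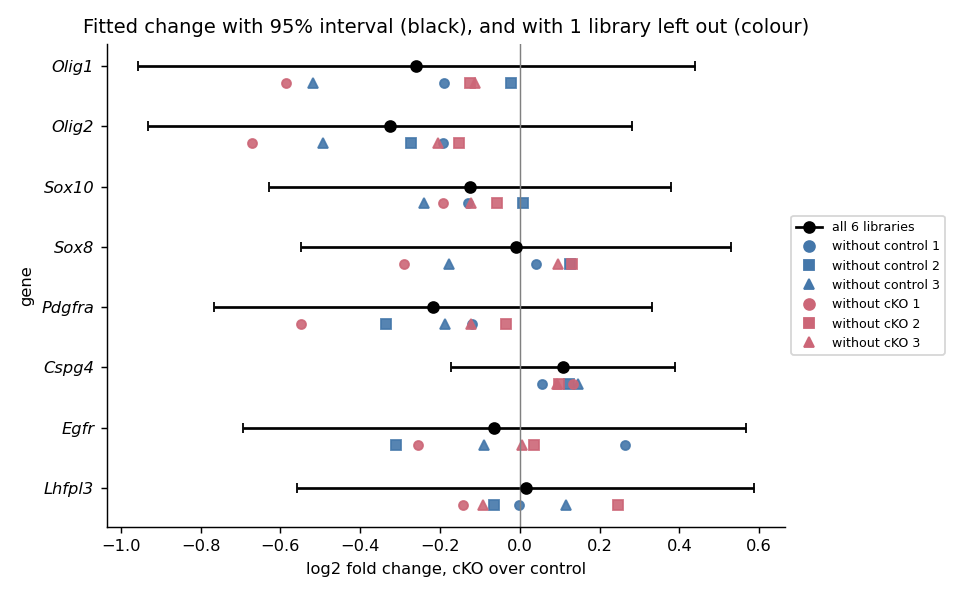
Fitted log2 fold change of cKO over control (x axis) for the 8 genes tested, in black with its 95% interval from all 6 libraries and in colour with each library left out in turn. Every black interval crosses 0, and the red circles, without cKO replicate 1, lie furthest to the left for Olig1 (-0.59), Olig2 (-0.67), Sox8 (-0.29), Pdgfra (-0.55) and Lhfpl3 (-0.14).

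Compared per transcript length, the order of the mean TPM over 6 libraries was Olig1 (21.4), Sox8 (15.4), Olig2 (13.0), Pdgfra (6.61), Egfr (5.16), Cspg4 (4.75), Lhfpl3 (3.99), Sox10 (2.34) and Nkx2-2 (0.263). Each gene exceeded the next in all 6 libraries, with 3 exceptions. Sox8 exceeded Olig2 in 5 libraries, Egfr exceeded Cspg4 in 3, and Cspg4 exceeded Lhfpl3 in 5, so the middle of the order did not hold against the spread between libraries. Pdgfra exceeded Egfr by 1.07 to 1.75 times. The 9 genes together summed to 83.7, 73.2 and 61.7 TPM in the control libraries and 97.4, 58.1 and 63.0 TPM in the cKO libraries, which is 72.9 ± 11.0 against 72.8 ± 21.4 TPM (SD, n = 3 each). On the TPM scale the median of all genes was itself higher in cKO by 0.16 (log2 of TPM + 0.1). In CPM the 9 genes summed to 108 ± 13.5 in control and 100 ± 25.1 in cKO (SD, n = 3 each).

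**Figure D3:**
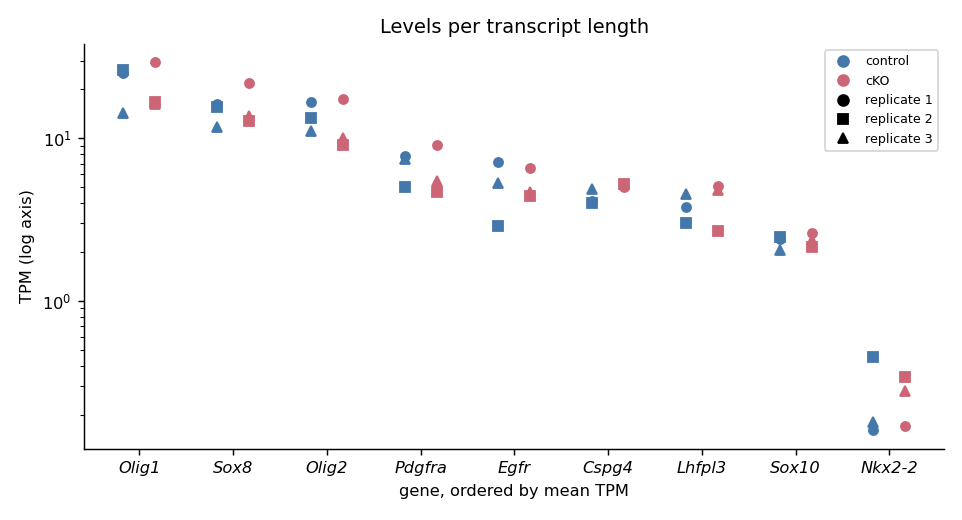
Level of each gene in TPM (y axis, log scale), ordered from left to right by its mean over 6 libraries, with control libraries in blue, cKO libraries in red and marker shapes for replicate numbers. Olig1 leads at 14.4 to 29.4 TPM, and Nkx2-2 is lowest at 0.16 to 0.45 TPM.

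Most of these genes varied widely between libraries of the same group. The within-group SD of log2 CPM was 0.53 for Olig1, 0.45 for Egfr and 0.43 for Olig2, against a median of 0.195 over all genes tested. It exceeded that median for 6 of the 8 genes tested. These 6 were more variable than 86.4% (Lhfpl3) to 96.4% (Olig1) of tested genes, while Sox10 was near the middle (48.9%) and Cspg4 among the steadiest (6.96%). Over the genes tested, control replicate 2 stood apart from its group, with a chi-square per degree of freedom of 41.5 and 65.4 against the other controls. The value was 10.5 between control replicates 1 and 3, and 3.52 to 9 within cKO. Control replicate 2 was the highest of all libraries for Olig1 and Sox10 and the lowest for Egfr.

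Several of the genes were high or low in the same libraries. Of the 8 genes tested, cKO replicate 1 was the highest library for 3 and the lowest for none, whereas cKO replicate 2 and control replicate 3 were each lowest for 3 genes and highest for none. The median deviation of the 8 genes from their 6-library means was 0.36 (log2) in cKO replicate 1 and -0.33 in cKO replicate 2, so the distance between these 2 libraries of the same group was larger than the median difference between groups. Markers of other cells also stood apart in cKO replicate 1. Ventral progenitor and interneuron markers summed to 913 to 990 TPM in control and to 1475, 1002 and 1121 TPM in the cKO libraries. Npy alone made up 475 to 508 TPM of the control sums and 885, 603 and 619 TPM of the cKO sums, and without it, a sum added after seeing the data, the list stood at 473, 491 and 438 TPM in control and 590, 399 and 502 TPM in cKO. Endothelial markers summed to 240 to 241 TPM in control and to 338, 263 and 262 TPM in cKO. Astrocyte markers summed to 428, 415 and 342 TPM in control and 534, 440 and 425 TPM in cKO. Which of these moves with the precursor genes, or why, was not tested.

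**Figure D4:**
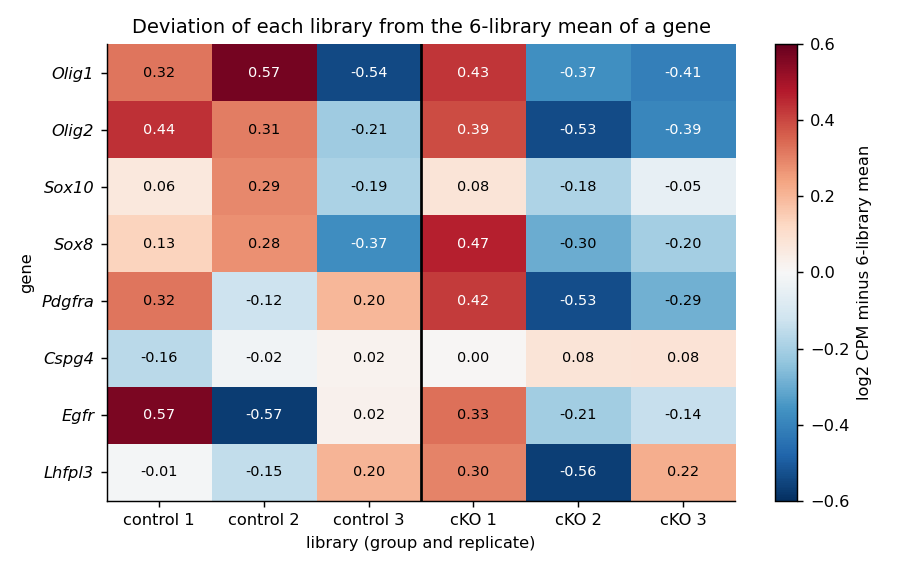
Deviation of each library (columns, 3 control then 3 cKO) from the mean log2 CPM of each gene over the 6 libraries (rows), with red above and blue below the mean and the value printed in each cell. The cKO replicate 1 column is above the mean for all 8 genes (0.0049 for Cspg4 to 0.47 for Sox8), and the cKO replicate 2 column is below it for all but Cspg4.

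By the distance between standardized log2 CPM profiles over the 6 libraries, the genes most like the mean profile of the 8 tested members were Fbln5 (root mean square difference 0.390), Tmem154 (0.391), Slc20a2 (0.395), Marchf11 (0.410) and Tmem237 (0.410). Among the members themselves, Olig2 (0.468) and Sox8 (0.486) were nearest to that mean, and Cspg4 (1.29) was furthest. With 6 libraries, and 13570 genes to choose from, this likeness is a description only.

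Olig2, Sox8 and Pdgfra were above their means in cKO replicate 1 and below them in cKO replicates 2 and 3, whereas Cspg4 was almost level. In control replicates 2 and 3 Pdgfra deviated in the opposite direction from Olig2 and Sox8. The 300-base promoters of these 4 members are printed 5′ to 3′ from RefSeq (GRCm38.p6), each running from 250 bases before to 50 after the gene's start. They are Olig2 (chr16:91225300-91225599, plus strand), Sox8 (chr17:25570637-25570936, minus strand), Pdgfra (chr5:75152001-75152300, plus strand) and Cspg4 (chr9:56864854-56865153, plus strand). Capitals mark matches on either strand to the E-box CANNTG, the letters bound by basic helix-loop-helix factors, to the SOX core ACAANG, or to TATAAA.
Olig2: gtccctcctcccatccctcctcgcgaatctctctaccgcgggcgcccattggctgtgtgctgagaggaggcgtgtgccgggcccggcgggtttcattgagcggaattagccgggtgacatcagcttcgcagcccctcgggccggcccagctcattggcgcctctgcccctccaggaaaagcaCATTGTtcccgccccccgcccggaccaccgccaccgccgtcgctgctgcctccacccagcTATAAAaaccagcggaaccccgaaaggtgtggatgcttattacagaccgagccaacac
Sox8: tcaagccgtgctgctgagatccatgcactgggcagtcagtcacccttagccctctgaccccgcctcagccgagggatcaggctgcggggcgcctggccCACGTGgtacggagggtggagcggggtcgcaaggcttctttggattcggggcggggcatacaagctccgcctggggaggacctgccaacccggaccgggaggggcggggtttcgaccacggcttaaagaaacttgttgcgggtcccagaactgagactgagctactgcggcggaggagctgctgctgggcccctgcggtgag
Pdgfra: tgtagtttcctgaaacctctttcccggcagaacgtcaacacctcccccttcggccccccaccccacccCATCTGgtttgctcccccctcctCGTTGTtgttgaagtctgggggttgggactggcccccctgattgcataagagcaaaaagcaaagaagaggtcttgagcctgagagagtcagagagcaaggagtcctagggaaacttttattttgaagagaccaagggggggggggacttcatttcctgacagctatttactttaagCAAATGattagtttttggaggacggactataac
Cspg4: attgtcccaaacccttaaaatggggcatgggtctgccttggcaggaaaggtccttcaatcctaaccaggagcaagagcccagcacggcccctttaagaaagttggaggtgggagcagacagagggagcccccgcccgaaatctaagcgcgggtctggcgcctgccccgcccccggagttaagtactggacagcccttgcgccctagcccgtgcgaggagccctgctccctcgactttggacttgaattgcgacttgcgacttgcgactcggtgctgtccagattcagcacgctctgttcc

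Of the 9 genes, 7 had a promoter in the table used. The Olig2 window held 1 SOX match and 1 TATAAA, the Sox8 window 1 E-box, the Pdgfra window 2 E-boxes and 1 SOX match, and the Cspg4 window none of the 3. Among all 32851 promoters of this length, 72.3% held an E-box, 41.2% a SOX core and 13.6% TATAAA, so these letters are common and a match is a description of the sequence, not a site. The GC content was above the median of all promoters (52.7%) for 6 of the 7, from 59.7% (Nkx2-2) to 66.3% (Sox8), and was 51% for Pdgfra.

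Other genes of precursors and newly committed oligodendrocytes were likewise without a change that passed. Of 21 genes listed, 20 were in the table and 17 were tested. By edgeR's quasi-likelihood test 0 of 17 passed the adjusted threshold and 0 of 17 met the looser rule, and their median log2 fold change was 0.02. The most abundant were Sox4 (log2 fold change -0.13, mean 690 TPM) and Sox11 (-0.01, mean 556 TPM), which neurons express as well. Bmp4, Neu4 and Enpp6, which come on in cells past the precursor stage, were at 0.068, 0.032 and 0.023 TPM on average. Other genes of the list were not near 0, such as Gpr17 (mean 3.08 TPM, log2 fold change -0.26) and Rgcc (mean 19.7 TPM, log2 fold change -0.06). The 3 near 0 therefore do not show that transcripts of newly committed cells were absent. Leaving out 1 library let up to 3 of the 17 meet the looser rule (without control replicate 3 or without cKO replicate 1). Of all genes tested, 1894 of 13719 met it without control replicate 3 and 534 of 13702 without cKO replicate 1.

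Myelinating genes were low, and 0 of the 9 tested passed either rule (median log2 fold change 0.13). Mag (0.123 TPM on average), Cldn11 (0.137 TPM) and Aspa (0.06 TPM), which mark mature oligodendrocytes, were near 0, whereas Mbp averaged 11.1 TPM and Mog 15 TPM. In CPM the groups did not overlap for 1 gene of the 9, close to the 14.3% of all genes. This was Mbp, which encodes a main protein of myelin, at 22.1 ± 3.63 CPM in control and 19.0 ± 0.48 CPM in cKO (SD, n = 3 each), with a log2 fold change of -0.22 (edgeR adjusted p = 0.841).

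Among the other ligands and receptors of the PDGF and EGF families, to which Pdgfra and Egfr belong, 13 of 15 genes were tested and none passed the adjusted threshold (median log2 fold change 0.12). Under the looser rule 2 were higher in cKO and 1 lower. Pdgfrb, the PDGF receptor of pericytes, had 14.4, 11.9 and 15.9 TPM in control and 19.2, 16.6 and 19.9 TPM in cKO (log2 fold change 0.27, edgeR unadjusted p = 0.0448, adjusted p = 0.731). Nrg1, a ligand of the ErbB receptors, had 13.2, 8.02 and 15.5 TPM in control and 18.4, 19.0 and 19.5 TPM in cKO (log2 fold change 0.47, edgeR unadjusted p = 0.0441, adjusted p = 0.731). In both the groups did not overlap. Without control replicate 2, the lowest library for both in TPM, the log2 fold change was 0.24 for Nrg1 and 0.23 for Pdgfrb. Tgfa, a ligand of Egfr, was the gene on the lower side, at 8.0, 9.39 and 9.30 TPM in control and 8.72, 5.49 and 5.47 TPM in cKO (log2 fold change -0.58, edgeR unadjusted p = 0.0224, adjusted p = 0.622), with cKO replicate 1 inside the control range. Pdgfa, the main ligand of Pdgfra, gave -0.13 (adjusted p = 0.900). The most abundant of the list was Nrg3, at 22 TPM on average, with a log2 fold change of 0.19. The count of genes under the looser rule was 1 in place of 3 without control replicate 2, cKO replicate 1 or cKO replicate 2, and 0 without cKO replicate 3.

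Sonic hedgehog signalling, which induces Olig2 and Nkx2-2 in ventral progenitors, was represented by 12 genes, of which 11 were tested and none passed the adjusted threshold (median log2 fold change 0.10). Under the looser rule 3 of the 11 were higher in cKO, where 3.01% of all genes were, and the groups of all 3 were apart. Cdon and Boc encode co-receptors for the ligand. Cdon, the most abundant of the list, had 43.6, 23.9 and 45.0 TPM in control and 54.9, 63.8 and 58.5 TPM in cKO (log2 fold change 0.54, SE 0.17, edgeR unadjusted p = 0.0126, adjusted p = 0.557). Boc had 22.2, 16.9 and 19.5 TPM in control and 26.7, 29.5 and 26.2 TPM in cKO (log2 fold change 0.35, SE 0.11, edgeR unadjusted p = 0.0135, adjusted p = 0.567). Both were higher in every cKO library than in any control. Gli2, a transcription factor of the pathway, had 5.94, 4.46 and 6.67 TPM in control and 6.94, 9.09 and 8.19 TPM in cKO (log2 fold change 0.39, edgeR unadjusted p = 0.0327, adjusted p = 0.683). Of the transcripts that the pathway itself induces, Ptch1 gave -0.11 (adjusted p = 0.900) and Gli1 gave 0.10 (adjusted p = 0.940). Once trends on transcript length and base composition were removed, Cdon had an adjusted p of 0.0480, or 0.0689 with the replicate block added, and without cKO replicate 2 only 1 gene of the list met the looser rule. Without control replicate 2, the lowest library for Cdon, the log2 fold change of Cdon was 0.35.

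**Figure D5:**
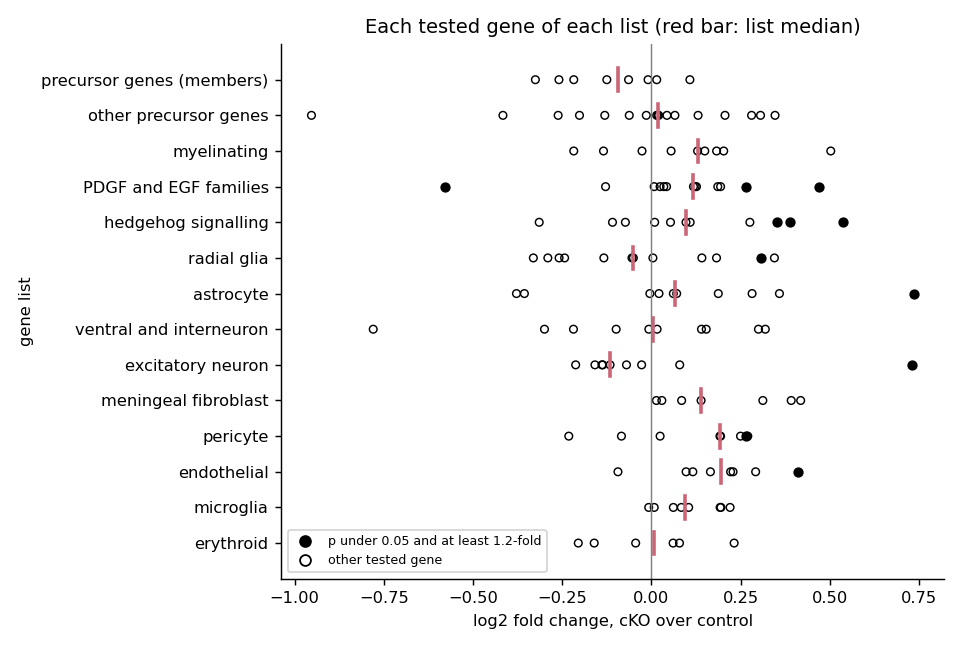
Log2 fold change of cKO over control (x axis) of each tested gene in 14 lists (rows), with filled circles for genes with an unadjusted p under 0.05 and at least a 1.2-fold change and a red bar at the median of the list. The 8 precursor genes in the top row are all open circles between -0.33 and 0.11, and 3 filled circles lie to the right in the hedgehog row.

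In the lists for other cell types, 0 genes passed the adjusted threshold by edgeR's quasi-likelihood test. The looser rule was met by 1 of 12 radial glia, 1 of 10 astrocyte and 1 of 9 excitatory neuron markers. It was also met by 1 of 8 pericyte (Pdgfrb again) and 1 of 8 endothelial markers, and each of these genes was higher in cKO. None of the 10 ventral, 7 fibroblast, 8 microglia and 6 erythroid markers tested met it. Of all genes tested, 6.32% met this rule in either direction and 3.01% met it on the higher side, so these single genes are not read as a change of a cell type. Median log2 fold changes were -0.05 for radial glia, 0.07 for astrocytes, 0.0044 for ventral progenitors and interneurons, -0.12 for excitatory neurons, 0.14 for meningeal fibroblasts, 0.19 for pericytes, 0.19 for endothelial cells, 0.09 for microglia and 0.0083 for erythroid cells. In TPM sums the cKO libraries were above every control for endothelial markers and for microglia markers (80.2 to 110 TPM in control and 111 to 117 TPM in cKO). The same held for ventral progenitor and interneuron markers (913 to 990 TPM in control and 1002 to 1475 TPM in cKO), whose sums overlapped once Npy was left out. However, the TPM of all genes was shifted toward cKO by 0.16 (log2) as well. In CPM the groups were apart for 1 of 8 endothelial, 2 of 8 microglia and 0 of 10 ventral progenitor and interneuron genes, where 14.3% of all genes were. Sums over the radial glia, astrocyte, excitatory neuron, fibroblast, pericyte and erythroid lists overlapped between the groups. The fibroblast sum was mostly Igf2 (33.37 to 41.85 TPM in control and 35.45 to 42.64 TPM in cKO), so its overlap says little of the other fibroblast genes. All 7 fibroblast genes tested had a log2 fold change above 0, and in CPM the groups were apart for 1 of them. Excitatory neuron markers, which define cortical tissue, summed to 1939 to 2703 TPM in control and 2188 to 2469 TPM in cKO. Nkx2-1, which defines the medial ventral progenitor zone, was at 0.27 to 0.71 TPM.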

How the data were processed

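Total RNA of E18.5 cortices was extracted with Trizol, and mRNA libraries were sequenced on the DNBSEQ platform. The authors deposited, for each gene and library, an estimated count (not normalized, 89.4% of values whole), a TPM value and an FPKM value. The submitters' processing notes name HISAT2 2.2.1, Bowtie2 2.4.5, RSEM 1.3.1 and the build GRCm38 (mm10), and the roles of the tools, the annotation and the strandedness are not given in the sources used here. The authors' FPKM values and group averages were not used, and 0 columns of per-sample values remained unassigned. Counts of overlapping or antisense transcripts cannot be told apart without strand.

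Groups and replicate numbers came from the labels. Estimated counts were rounded, filtered with filterByExpr and scaled by TMM. The groups were then compared by the quasi-likelihood test of edgeR 4.0.16 in R 4.3.3, with p-values adjusted over all genes tested (Benjamini-Hochberg). Each SE follows from the log2 fold change divided by the root of F, CPM values use TMM-scaled totals, and no pair of replicates was a duplicate (chi-square per degree of freedom 3.52 to 65.4). The common biological coefficient of variation was 0.147, to which counting error adds, most for members with few counts such as Sox10 (32 to 53 counts). The floor of 3 counts covers counting error only. Permutation tests were exact and two-sided. Same-numbered libraries deviated together with correlations of 0.0884, 0.0615 and 0.23, which did not establish pairing.

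The 9 members and the lists of cell type and pathway genes were chosen with earlier results of these data known. Named are all members, Ybx1, markers near 0, genes of the precursor, PDGF and EGF, and hedgehog lists under the looser rule, the most abundant of these lists, and the 5 genes nearest the mean member profile. Mbp, Mog, Pdgfa, Ptch1, Gli1, Slc6a13, Col1a1, Nkx2-1 and Npy were named for their role or level, after their values were seen. Igf2, Col1a2, Gpr17 and Rgcc were likewise named after their values were seen. Of the 17348 genes, 96.7% had a length and GC content in GENCODE M21. Alternatives were RLE factors, other filters, DESeq2 1.42.0, limma 3.58.1 on log2(TPM + 0.1) and log2(TPM + 1), the replicate block, a length and GC correction (mgcv 1.9.3), and each library left out. Methods were tested on simulated data. Python 3.11.15 with matplotlib 3.10.9 made the figures. Mobp, Opalin and Nkx6-2 were not analysed here.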

Additional observations from a re-analysis of the deposited data

How the results depend on the processing

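Across 15 alternatives, 0 members had an adjusted p under 0.05, and the lowest was 0.338 (Pdgfra, where length and GC correction was joined to the replicate block). Values below are centred on the median of all genes tested, which the TPM fits shifted by 0.16 (pseudocount 0.1) and 0.14 (pseudocount 1). The median of members stayed below 0 in every alternative but came close to it (-0.27 to -0.0046 with 1 library left out). So did Olig1 (-0.58 to -0.03), Olig2 (-0.67 to -0.16) and Pdgfra (-0.54 to -0.04), while Cspg4 stayed above 0 (0.05 to 0.14).

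Genes with an adjusted p under 0.05 numbered 10, and 99 with DESeq2, 164 after length and GC correction, 177 when the replicate block joined that correction, and 8 to 122 with 1 library left out. The count of 122 was the one without control replicate 2. Genes under the looser rule numbered 857, and 1305 and 1306 in the TPM fits and 490 to 1894 with 1 library left out. Members under the looser rule numbered 0, and 1 (Pdgfra) when the correction and the block were joined, where 1206 of 13319 genes met it. With 1 library left out they numbered 0 to 2. The 2 were Olig2 and Pdgfra, without cKO replicate 1, where 534 of 13702 genes met the rule. Members whose groups did not overlap numbered 1 (Cspg4) on TPM values. The share of all genes on that scale was not computed, so this count is not read as a result. Lhfpl3 turned to -0.0423 and -0.0426 in the TPM fits, -0.0300 with the replicate block, -0.0211 after the correction and -0.0495 with both. Sox8 turned to 0.0457 with the correction and 0.0224 with both. With 1 library left out, Sox8 ranged from -0.28 to 0.13, Lhfpl3 from -0.14 to 0.24, Egfr from -0.32 to 0.26 and Sox10 from -0.25 to 0.0033. The cause of these turns was not tested.

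The replicate block alone gave 11 genes with an adjusted p under 0.05 and 1026 under the looser rule, and changed no call of a member. The correlations of same-numbered libraries were not all above 0.1, yet 6 of 6 libraries correlated best with their own number. The series description speaks of 3 sequencing batches, but no label ties a replicate number to a batch, so values within batches could not be given. Depth left Nkx2-2 at 2 to 8 counts, too few for a comparison, and Sox10 at 32 to 53 counts. How much of the other intervals comes from depth was not tested.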
